A study of Mus musculus with 6 samples.

Results

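The genes described here build the extracellular matrix of the liver or mark the stellate cells and fibroblasts that make much of it. The set was given as 44 gene symbols: fibrillar, network and fibril-associated collagens, basement membrane and elastic fibre proteins, proteoglycans, matrix proteases and their inhibitors, TGF-beta and its receptors, and markers of hepatic stellate cells. Of these, 43 had a probe set annotated with that gene alone, out of 19938 genes with such a probe set in the series, and each of the 43 had exactly 1. Fbn1 was not analysed here. The probe sets of 6 members (Col5a2, Lox, Mgp, Lama4, Timp1 and Des) stood at 5, the lowest value of the table, on all 6 arrays and carry no difference. The remaining 37 members were above that floor on at least 1 array and are described as the tested members.

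The samples were total liver RNA of 3 TLR3-/- mice and 3 TLR3wt mice, all untreated and 3 months old, on 1 oligonucleotide array per mouse. The wild types are labelled C57Bl/6, and all animals were bred in-house under SPF conditions. TLR3 is an endosomal receptor of double-stranded RNA. The sources used here do not say how the TLR3-/- allele was made or whether the wild types were littermates. Tlr3 itself (probe set 10578493) read 5, the floor, in every mouse, which leaves the genotype unchecked by these arrays. All 10 hepatocyte markers with a probe set were above the floor. Their summed linear signal was 50600 to 51300 in TLR3-/- livers and 52700 to 54000 in TLR3wt livers, without overlap, with differences of -0.39 for Tat, -0.26 for Hnf4a and -0.10 for Apoa1. Of 6 cholangiocyte markers 5 (Krt19, Krt7, Epcam, Cldn7 and Cftr) were at the floor in all mice, and Sox9 had a difference of 0.19, which was 0.01 without TLR3wt replicate 1 and 0.47 without TLR3wt replicate 3. Values are log2 RMA signals, an array brightness on a log2 scale, so a difference of 1 is a doubling. Differences are given as TLR3-/- minus TLR3wt.

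Liver matrix takes 2 main forms. Fibrillar collagens of types I, III and V form the fibres of portal tracts and vessel walls, while type IV collagen, laminins, nidogens and perlecan form basement membranes and the sparse matrix of the sinusoids. Hepatic stellate cells sit between hepatocytes and sinusoidal endothelium, store vitamin A as retinyl esters, and are known to turn into collagen-producing myofibroblasts under TGF-beta and PDGF signals. In a healthy liver most of them are quiescent.

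Across the tested members, most collagen genes, both nidogen genes and Sparc had lower means in the TLR3-/- livers, and stellate cell markers were divided between higher and lower means. No member passed limma's adjusted p of 0.05 (0 of 37), where 0.186% of all 16639 tested probe sets passed (0.138% higher, 0.0481% lower). The smallest adjusted p among members was 0.117 (Tgfb1). In all, 26 members had a lower mean in TLR3-/- livers, 9 had a higher mean, and the differences of Lum and Hgf rounded to 0.00. Over all tested probe sets 41.2% had a lower and 58.8% a higher mean. The median difference was -0.10 over the tested members, or -0.06 without TLR3wt replicate 3, and 0.03 over all tested probe sets. At an unadjusted limma p under 0.05, 9 members (24.3%) had lower and 3 (8.11%) higher means. Over all tested probe sets these shares were 5.25% and 9.21%, or 14.5% in either direction. All 3 TLR3-/- livers lay below all 3 TLR3wt livers in 11 members (29.7%, against 7.04% of all tested probe sets). They lay above in 3 members (8.11%, against 13.0%), and 20.1% of all tested probe sets were without overlap in either direction. The plot of single mice shows these 14 genes. No comparison below reached the threshold.

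**Figure D1:**
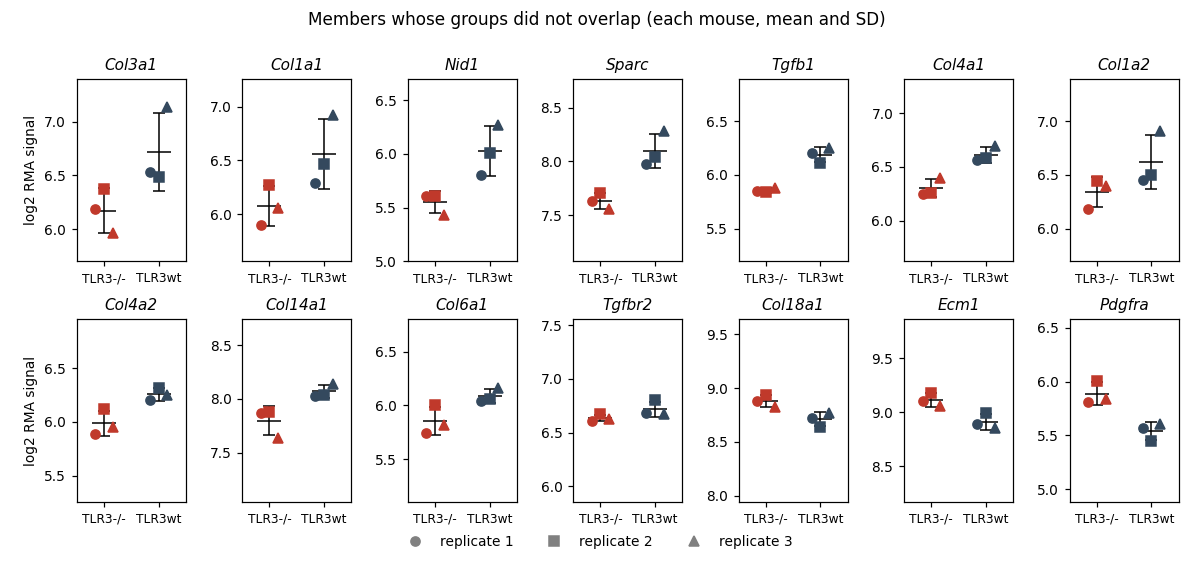
Log2 RMA signal (y axis, the same span in each panel) of the members whose groups did not overlap, with TLR3-/- mice in red on the left and TLR3wt mice in dark blue on the right (n = 3 each). Symbols mark the replicate number, horizontal bars the mean and whiskers the SD. In 11 genes every TLR3-/- liver is the lower one, and in Col18a1, Ecm1 and Pdgfra every TLR3-/- liver is the higher one.

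Sequences upstream of 5 members are shown as examples of the roles described below. Sparc and Nid1 had the widest gaps between the groups among basement membrane genes and Tgfb1 among TGF-beta genes, and Col3a1 and Col1a2 encode chains of the 2 main fibrillar collagens. Each is the stretch of 250 bases before the annotated start, from RefSeq (build GRCm38.p6), in the direction of transcription. Capitals mark matches on either strand to 5 short motifs: the GC box GGGCGG, the CCAAT box CCAAT, the TATA box TATAAA, the AP-1 site TGANTCA and the core of the SMAD-binding CAGA box, CAGACA. No matches overlapped in these windows.
Sparc (chr11:55420081-55420330, minus strand): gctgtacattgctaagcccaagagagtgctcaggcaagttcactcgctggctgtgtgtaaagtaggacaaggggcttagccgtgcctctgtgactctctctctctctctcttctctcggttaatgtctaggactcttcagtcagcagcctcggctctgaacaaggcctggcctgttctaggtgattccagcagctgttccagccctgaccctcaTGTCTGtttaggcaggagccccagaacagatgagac
Nid1 (chr13:13437352-13437601, plus strand): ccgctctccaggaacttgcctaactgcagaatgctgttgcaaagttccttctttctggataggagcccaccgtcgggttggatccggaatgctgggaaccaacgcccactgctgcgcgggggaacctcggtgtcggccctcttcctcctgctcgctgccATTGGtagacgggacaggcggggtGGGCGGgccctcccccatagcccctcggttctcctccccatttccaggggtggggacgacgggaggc
Tgfb1 (chr7:25686752-25687001, plus strand): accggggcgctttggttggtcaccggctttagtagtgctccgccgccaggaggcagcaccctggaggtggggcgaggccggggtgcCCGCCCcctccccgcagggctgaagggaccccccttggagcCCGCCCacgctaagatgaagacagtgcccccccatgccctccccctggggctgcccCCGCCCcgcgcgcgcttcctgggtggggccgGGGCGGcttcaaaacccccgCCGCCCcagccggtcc
Col3a1 (chr1:45311288-45311537, plus strand): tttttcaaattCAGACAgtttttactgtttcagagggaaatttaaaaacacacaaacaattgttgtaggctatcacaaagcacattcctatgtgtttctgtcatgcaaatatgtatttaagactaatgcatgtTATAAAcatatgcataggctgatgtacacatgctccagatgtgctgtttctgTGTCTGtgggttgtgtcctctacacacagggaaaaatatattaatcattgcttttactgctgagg
Col1a2 (chr6:4505368-4505617, plus strand): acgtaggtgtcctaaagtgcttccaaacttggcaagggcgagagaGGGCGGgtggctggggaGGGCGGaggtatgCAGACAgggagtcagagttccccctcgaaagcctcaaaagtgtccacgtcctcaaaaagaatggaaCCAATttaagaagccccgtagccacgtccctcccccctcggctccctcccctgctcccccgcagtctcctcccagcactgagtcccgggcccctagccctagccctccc
The CAGA core matched once upstream of Sparc, once upstream of Col1a2 and 2 times upstream of Col3a1, and 17.1% of 32851 windows of this length hold it. Nid1 and Tgfb1 had no such match. Of 30 members with such a window, 9 held the CAGA core, 20 the GC box and 13 the CCAAT box. The TATA box and the AP-1 site were each held by 2 of the 30. These are counts of genes, while the shares over all windows are of windows, so they are not in the same unit. The GC box matched 5 times upstream of Tgfb1, 2 times upstream of Col1a2 and once upstream of Nid1, and 32.7% of all windows hold it. A CCAAT match, present in 33.8% of windows, lay upstream of Nid1 and Col1a2, and a TATA match (12.4%) upstream of Col3a1. No AP-1 match was found in these 5 windows (6.75% of all windows). A match is only a run of letters, and no match says only that these letters are not in this window.

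Among basement membrane genes and Sparc, 7 of 8 tested genes had lower means in TLR3-/- livers, against 41.2% of all tested probe sets. In 4 of them every TLR3-/- liver lay below every TLR3wt liver, against 7.04% of all tested probe sets. The median difference was -0.25, or -0.30 to -0.18 when any 1 mouse was left out. Among 13 other basement membrane genes, described further below, 7 had lower and 5 higher means, with a median of -0.02. Sparc (10386058), a collagen-binding glycoprotein that regulates matrix assembly, was 7.63, 7.71 and 7.56 in TLR3-/- livers, against 7.98, 8.04 and 8.28 in TLR3wt livers. Every TLR3-/- value lay below every TLR3wt value, with a gap of 0.26 between the nearest mice. The difference was -0.47 (95% interval -0.70 to -0.23, limma adjusted p = 0.144), a level 1.38-fold lower in TLR3-/- livers. Without TLR3wt replicate 3 that difference was -0.37.

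Nid1 (10403584) encodes nidogen-1, which links laminin to type IV collagen. It was 5.61, 5.61 and 5.43 in TLR3-/- livers, against 5.80, 6.01 and 6.27 in TLR3wt livers. The TLR3-/- livers lay close together and below the more widely spread TLR3wt livers. The difference was -0.48 (95% interval -0.79 to -0.17, limma adjusted p = 0.199), and -0.36 without TLR3wt replicate 3. Its relative Nid2 was 5.65 ± 0.30 in TLR3-/- livers and 5.89 ± 0.24 in TLR3wt livers (SD, n = 3 each), with overlapping groups and an interval of -0.69 to 0.21, and its difference of -0.24 was -0.10 without TLR3wt replicate 3.

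Col4a1 (10576973) and Col4a2 (10570068) encode the chains of the main type IV collagen network, and they are transcribed in opposite directions from a shared promoter. Col4a1 was 6.25, 6.26 and 6.40 in TLR3-/- livers, against 6.56, 6.58 and 6.69 in TLR3wt livers. Col4a2 was 5.89, 6.12 and 5.95 in TLR3-/- livers, against 6.20, 6.32 and 6.25 in TLR3wt livers. Neither gene had overlapping groups, and the differences were close in size, -0.31 (95% interval -0.47 to -0.14, limma adjusted p = 0.163) and -0.27 (-0.46 to -0.08, limma adjusted p = 0.218). Their annotated starts overlap by 22 bases, shown here to place the shared start. Matches are not marked in this stretch, which is in lower case throughout although it holds the GC box letters GGGCGG.
Col4a1 and Col4a2 start (chr8:11312805-11312826, plus strand, the strand of Col4a2): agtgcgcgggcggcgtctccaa
Both genes lie on chromosome 8, as Tlr3 does, with 110 tested genes between Col4a1 and Tlr3 and 109 between Col4a2 and Tlr3. The members Hand2 and Mmp2 lie on the same chromosome, with 20 and 210 tested genes between them and Tlr3.

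The laminin chain genes Lamc1 and Lamb1 had small differences, and the alpha chain gene Lama4 was at the floor in all mice. Lama3, a laminin chain gene outside the members, had a difference of 0.25 and is described further below. Lamc1, the gamma chain shared by most laminins, was 6.36 ± 0.10 in TLR3-/- livers and 6.48 ± 0.08 in TLR3wt livers, and Lamb1 was 5.82 ± 0.07 in TLR3-/- livers and 5.87 ± 0.08 in TLR3wt livers (SD, n = 3 each). Both had overlapping groups, with intervals of the difference of -0.30 to 0.07 and -0.22 to 0.11. Among the tested members of this list, Col18a1 (10370259) was the exception in direction. This collagen, the precursor of endostatin, is made largely by hepatocytes in liver. It was 8.88, 8.94 and 8.82 in TLR3-/- livers, against 8.72, 8.64 and 8.77 in TLR3wt livers, without overlap (difference 0.18, 95% interval 0.02 to 0.33, limma adjusted p = 0.285).

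The RNA came from whole liver, so fewer cells of a type and less RNA per cell cannot be told apart, here and for all other members. Markers of sinusoidal endothelial cells and of Kupffer cells were set beside these values. Of 21 sinusoidal endothelial markers, all above the floor on at least 1 array, 9 had lower means in TLR3-/- livers, or 6 to 13 when 1 mouse was left out. Their summed linear signal was 3230 to 3850 in TLR3-/- livers and 3030 to 3990 in TLR3wt livers, so the groups overlapped. Within this list Lyve1 had a difference of -0.56 and Pecam1 of -0.24, both without overlap, and Fcgr2b of 0.29 (limma adjusted p = 0.307, 0.241 and 0.431). That of Lyve1 was -0.36 without TLR3-/- replicate 3, and that of Fcgr2b was 0.17 without TLR3wt replicate 3. Of 16 Kupffer cell markers, none of them at the floor on all arrays, 15 had lower means. Their summed signal was 1730 to 2700 in TLR3-/- livers and 3100 to 4150 in TLR3wt livers, without overlap, and Timd4, Adgre1 and Marco had differences of -0.90, -1.00 and -1.08 (limma adjusted p = 0.0994, 0.114 and 0.138). The part of endothelial, Kupffer and hepatocyte content in the matrix differences was not tested.

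**Figure D2:**
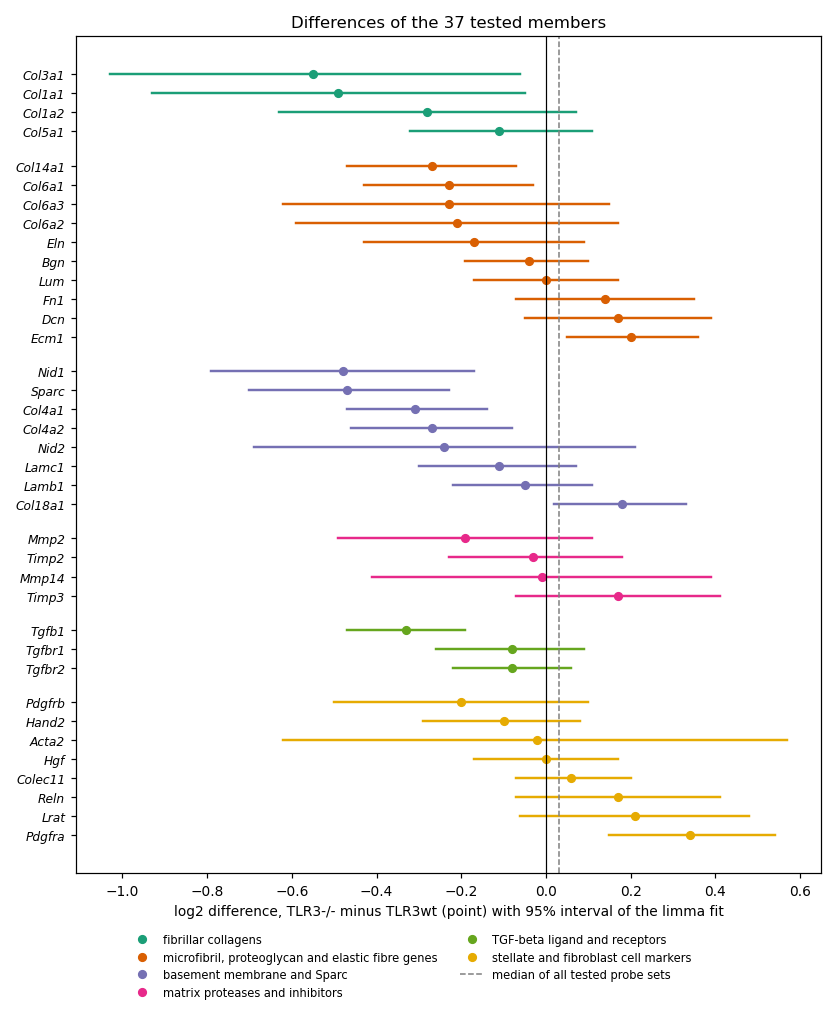
Log2 difference, TLR3-/- minus TLR3wt (x axis), of the 37 tested members (y axis, grouped by role), with 95% intervals of the limma fit. The dashed line is the median of all tested probe sets, 0.03. Fibrillar collagens and most basement membrane genes lie left of 0, and Pdgfra, Ecm1 and Col18a1 have intervals that lie right of 0.

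Fibrillar collagens had lower means in TLR3-/- livers in all 4 tested genes, with a median difference of -0.39, and TLR3wt replicate 3 weighed heavily in it. Col3a1 (10346015), the chain of type III collagen, was 6.19, 6.37 and 5.96 in TLR3-/- livers, against 6.53, 6.49 and 7.14 in TLR3wt livers. The groups did not overlap, and TLR3wt replicate 3 stood well above the other wild types. The difference was -0.55 (95% interval -1.03 to -0.06, limma adjusted p = 0.294), and -0.34 without TLR3wt replicate 3.

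Both type I collagen chains also had every TLR3-/- liver below every TLR3wt liver. Col1a1 (10380419) was 5.90, 6.27 and 6.06 in TLR3-/- livers, against 6.29, 6.47 and 6.92 in TLR3wt livers. Col1a2 (10536220) was 6.18, 6.44 and 6.40 in TLR3-/- livers, against 6.45, 6.50 and 6.91 in TLR3wt livers. In both genes TLR3wt replicate 3 was again the highest mouse, and the nearest mice of the 2 groups were 0.03 and 0.01 apart. The differences were -0.49 (95% interval -0.93 to -0.05, limma adjusted p = 0.298) and -0.28 (-0.63 to 0.07, limma adjusted p = 0.422), and -0.31 and -0.13 without TLR3wt replicate 3. Col5a1, a chain of type V collagen, which nucleates fibrils, was 5.53 ± 0.05 in TLR3-/- livers and 5.64 ± 0.16 in TLR3wt livers with overlap (SD, n = 3 each), and its difference of -0.11 became -0.03 without that mouse. The median of the 4 genes was -0.22 without TLR3wt replicate 3 and -0.50 without TLR3wt replicate 1. Col5a2, the neighbour of Col3a1 on chromosome 1, was at the floor on all arrays.

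TLR3wt replicate 3 had the highest value of the 6 mice in 20 of the 37 tested members. Among the TLR3wt mice alone it was the highest in 24 members (64.9%), where this held for 32.1% of all tested probe sets. The SD was larger among TLR3wt than among TLR3-/- livers in 28 members (75.7%), against 51.8% of all tested probe sets. The median SD of the members was 0.08 within TLR3-/- and 0.13 within TLR3wt livers. Over all tested probe sets the median SD was 0.1 within each group. Relative to the TLR3wt mean, the fibrillar collagens averaged -0.42, -0.24 and -0.41 in the 3 TLR3-/- mice, against -0.20, -0.11 and 0.31 in the TLR3wt mice, the last being replicate 3. The basement membrane list with Sparc averaged -0.21, -0.21 and -0.24 in the TLR3-/- mice, against -0.09, -0.03 and 0.12 in the TLR3wt mice. Both lists separated the groups, though the nearest mice for the fibrillar collagens stood at -0.24 and -0.20.

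**Figure D3:**
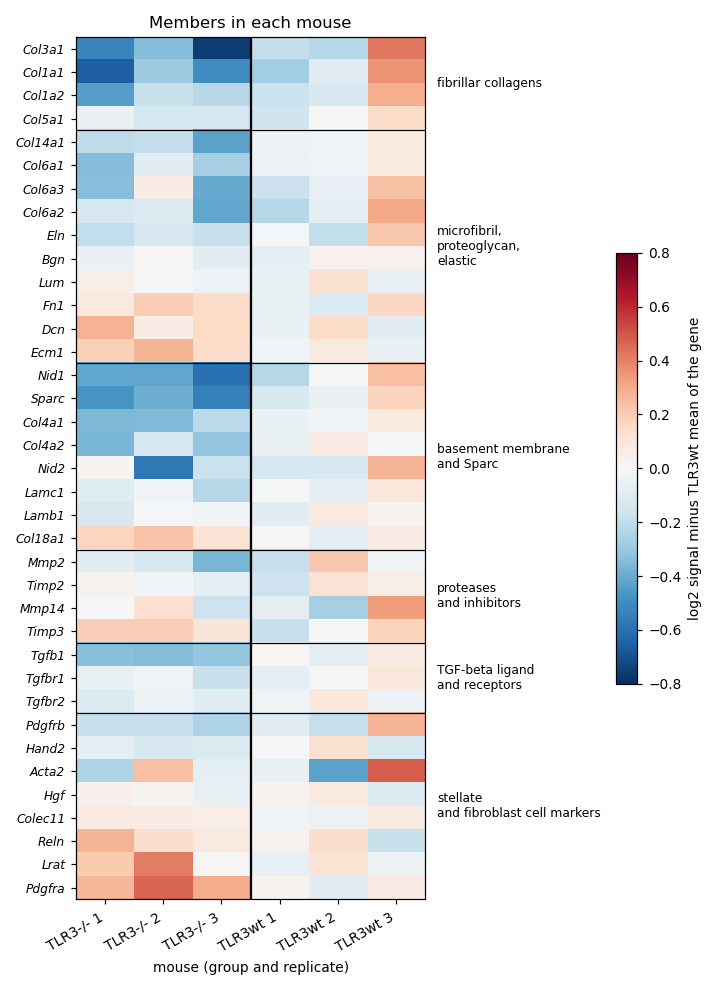
Log2 signal of each tested member (rows, grouped by role) in each mouse (columns, TLR3-/- left of the line, TLR3wt right of it), minus the TLR3wt mean of that gene, with blue below and red above it. TLR3wt replicate 3 is the reddest wild-type column among the fibrillar collagens, and the rows of Nid1, Sparc, Col4a1 and Tgfb1 are blue in all 3 TLR3-/- mice.

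Of 10 tested genes of microfibrils, proteoglycans and elastic fibres, 6 had lower and 3 higher means in TLR3-/- livers, Lum rounded to 0.00, and the median difference was -0.11, or -0.05 without TLR3wt replicate 3 and -0.07 without TLR3-/- replicate 3. Col14a1 (10424140), a fibril-associated collagen, was 7.87, 7.88 and 7.64 in TLR3-/- livers, against 8.03, 8.04 and 8.14 in TLR3wt livers. The groups did not overlap, and the wild types lay close together (difference -0.27, 95% interval -0.47 to -0.07, limma adjusted p = 0.239).

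Type VI collagen forms beaded microfibrils from 3 chains, and all 3 had lower means. Col6a1 (10370210) was 5.74, 6.00 and 5.82 in TLR3-/- livers, against 6.04, 6.06 and 6.16 in TLR3wt livers, without overlap (difference -0.23, 95% interval -0.43 to -0.03, limma adjusted p = 0.284). Col6a2 and Col6a3 had differences of -0.21 and -0.23 with overlapping groups, and these were -0.06 and -0.11 without TLR3wt replicate 3. Col6a1 and Col6a2 are adjacent on chromosome 10, with 2 protein-coding genes between Col6a1 and Col18a1, whose difference had the opposite sign. Eln, the gene of elastin, was close to the floor, at 5.03 ± 0.03 in TLR3-/- livers and 5.20 ± 0.20 in TLR3wt livers (SD, n = 3 each), with 1 mouse of each group at it. Its difference on these floored values was -0.17, and -0.06 without TLR3wt replicate 3. Mgp, the gene of an inhibitor of calcification, was at the floor in all mice.

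The genes with higher means in TLR3-/- livers were Ecm1, Fn1 and Dcn. Ecm1 (10500204), a secreted protein known in mouse liver to restrain the activation of latent TGF-beta, was 9.10, 9.18 and 9.06 in TLR3-/- livers, against 8.89, 8.99 and 8.85 in TLR3wt livers. The groups did not overlap (difference 0.20, 95% interval 0.05 to 0.36, limma adjusted p = 0.245). Fn1, the gene of fibronectin, which hepatocytes release into plasma, was 11.26 ± 0.06 in TLR3-/- livers and 11.12 ± 0.15 in TLR3wt livers, and the small proteoglycan gene Dcn was 9.94 ± 0.11 in TLR3-/- livers and 9.77 ± 0.13 in TLR3wt livers (SD, n = 3 each). Both had overlapping groups, with intervals of -0.07 to 0.35 and -0.05 to 0.39. The difference of Fn1, 0.14, was 0.08 without TLR3wt replicate 2, and that of Dcn, 0.17, was 0.11 without TLR3-/- replicate 1. Bgn, a related proteoglycan gene, had a difference of -0.04 (-0.19 to 0.10). Lum, the neighbour of Dcn on chromosome 10, was at the floor in 2 of 3 TLR3wt mice and above it by at most 0.18 in any mouse, so it gave no usable difference.

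Matrix proteases and their inhibitors showed overlapping groups in all 4 tested genes. Mmp2, gelatinase A, was 5.50, 5.46 and 5.22 in TLR3-/- livers, against 5.40, 5.80 and 5.55 in TLR3wt livers, a difference of -0.19 (95% interval -0.49 to 0.11). Leaving out TLR3-/- replicate 3 gave -0.11, and leaving out TLR3wt replicate 2 gave -0.08. Mmp14, the membrane protease that activates the Mmp2 proenzyme, had a difference of -0.01 (-0.41 to 0.39), which was 0.16 without TLR3wt replicate 3. The inhibitor genes Timp2 and Timp3 had differences of -0.03 (-0.23 to 0.18) and 0.17 (-0.07 to 0.41), and that of Timp3 was 0.08 without TLR3wt replicate 1. Timp1, an inhibitor gene known to be induced in injured liver, was at the floor in all 6 mice, as was Lox, whose enzyme cross-links collagen and elastin.

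All 3 TGF-beta genes had lower means in TLR3-/- livers, and the ligand gene had the largest difference of them. Tgfb1 (10551185) was 5.85, 5.84 and 5.88 in TLR3-/- livers, against 6.20, 6.11 and 6.25 in TLR3wt livers. The 3 TLR3-/- values were nearly equal and lay 0.24 below the nearest wild type. The difference was -0.33 (95% interval -0.47 to -0.19), a level 1.26-fold lower in TLR3-/- livers (limma adjusted p = 0.117). Tgfb1 is also made by macrophages, and the part of the Kupffer cell markers given above in this difference was not tested. Tgfbr1 and Tgfbr2, the type I and type II receptor genes, each had a difference of -0.08, with intervals of -0.26 to 0.09 and -0.22 to 0.06. The Tgfbr2 groups did not overlap, but the nearest mice both rounded to 6.67.

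Markers of stellate cells and fibroblasts did not share the direction of the collagens. Of 8 tested markers 4 had higher means in TLR3-/- livers, 3 had lower means, and Hgf rounded to 0.00. The median difference was 0.03, and 0.09 without TLR3wt replicate 3. Pdgfra (10522503), a PDGF receptor gene of fibroblasts and stellate cells, was 5.81, 6.01 and 5.84 in TLR3-/- livers, against 5.57, 5.45 and 5.61 in TLR3wt livers. All TLR3-/- livers lay above all wild types, by 0.20 at the nearest mice. The difference was 0.34 (95% interval 0.15 to 0.54, limma adjusted p = 0.169), a level 1.27-fold higher in TLR3-/- livers. Pdgfrb, the PDGF receptor gene most tied to stellate cells and pericytes, was 5.81, 5.80 and 5.74 in TLR3-/- livers, against 5.90, 5.80 and 6.26 in TLR3wt livers. Its groups overlapped by 0.01, since TLR3-/- replicate 1 lay just above TLR3wt replicate 2, and its difference of -0.20 (-0.50 to 0.10) was -0.07 without TLR3wt replicate 3.

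Genes of the quiescent stellate cell had overlapping groups. Lrat, whose enzyme esterifies retinol for storage, was 6.33, 6.53 and 6.13 in TLR3-/- livers, against 6.06, 6.23 and 6.08 in TLR3wt livers. Reln, the gene of the secreted glycoprotein reelin, was 8.04, 7.91 and 7.84 in TLR3-/- livers, against 7.80, 7.91 and 7.59 in TLR3wt livers. The highest mouse of each gene was a TLR3-/- liver, and the differences were 0.21 (95% interval -0.06 to 0.48) and 0.17 (-0.07 to 0.41). That of Lrat was 0.11 without TLR3-/- replicate 2, and that of Reln was 0.08 without TLR3wt replicate 3. The collectin gene Colec11 and Hgf, the gene of hepatocyte growth factor, had differences of 0.06 (-0.07 to 0.20) and 0.00 (-0.17 to 0.17). Hand2, a transcription factor gene of stellate cells, was within 0.25 of the floor in every mouse.

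Acta2, the gene of smooth muscle alpha-actin and the usual mark of myofibroblasts, was 5.40, 5.89 and 5.57 in TLR3-/- livers, against 5.59, 5.22 and 6.13 in TLR3wt livers. It varied more within the wild types than any other tested member (SD 0.46), the TLR3-/- values lay inside the TLR3wt range, and its difference of -0.02 has an interval of -0.62 to 0.57. Without TLR3wt replicate 3 that difference was 0.22. Des, the gene of desmin, was at the floor on all arrays. Of a further 9 tested stellate cell markers, 4 had higher and 4 lower means and 1 rounded to 0.00, with a median difference of 0.00, and none reached an unadjusted limma p under 0.05. The ones with the smallest p were Angptl6, Tcf21 and Lhx2, with differences of 0.19, 0.22 and 0.11, those of Tcf21 and Lhx2 being 0.11 and 0.07 without TLR3-/- replicate 1, while Gfap, Hhip, Nes and Pcdh7 were at the floor. The summed signal of this second list was 575 to 604 in TLR3-/- livers and 569 to 641 in TLR3wt livers, with overlap.

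Markers of other mesenchymal cells were mostly out of range. Of 12 portal fibroblast and mesothelial markers 9 were at the floor on all arrays, Cd34, Dpt, Msln, Upk3b and Wt1 among them. The 3 that were tested, Thy1, Gas6 and Entpd2, had differences of -0.16, -0.31 and 0.01, and Entpd2 was above the floor in 1 mouse only. Thy1 was at the floor in all TLR3-/- livers, against 5.03, 5.39 and 5.07 in TLR3wt livers. Its difference on these floored values had an interval of -0.41 to 0.09 (limma adjusted p = 0.522). That difference rested on TLR3wt replicate 2, without which it was -0.05. Gas6 was 6.90, 6.80 and 7.06 in TLR3-/- livers, against 6.90, 6.99 and 7.81 in TLR3wt livers, and its difference was -0.02 without TLR3wt replicate 3. The summed signal of the 3 genes was 176 to 198 in TLR3-/- livers and 184 to 290 in TLR3wt livers. The highest sum was that of TLR3wt replicate 3, and it came from Gas6. In that mouse Gas6 was 7.81, while Thy1 was 5.07 and Entpd2 was at the floor. Thy1 was highest in TLR3wt replicate 2, at 5.39. Gas6 alone cannot tell how many of these cells TLR3wt replicate 3 had. The part of these cells in the collagen values of that mouse was not tested. Of 8 smooth muscle markers 4 (Cnn1, Actg2, Lmod1 and Synpo2) were at the floor. Smtn, Mylk and Tagln had differences of -0.23, 0.15 and -0.09, those of Mylk and Tagln being 0.04 and 0.01 without TLR3wt replicate 3, and the summed signal was 313 to 350 in TLR3-/- livers and 300 to 336 in TLR3wt livers.

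**Figure D4:**
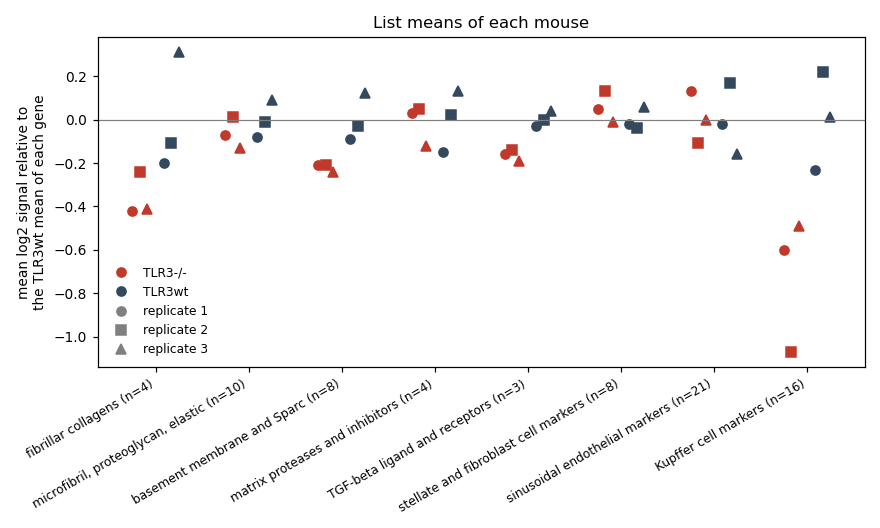
Mean log2 signal of each list in each mouse, relative to the TLR3wt mean of each gene (y axis), with TLR3-/- mice in red and TLR3wt mice in dark blue (n = 3 each) and the number of tested genes under each list. Fibrillar collagens, basement membrane genes with Sparc, TGF-beta genes and Kupffer cell markers separate the groups, and the stellate and endothelial lists do not. The lists of hepatocyte markers, collagen modification genes and matrix receptors, which are not plotted, also separate the groups.

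Genes around the members were taken from 7 further lists of matrix and TGF-beta pathway genes, with 92 tested genes in all. None passed limma's adjusted p of 0.05, and the smallest adjusted p was 0.0843. An unadjusted limma p under 0.05 was reached by 20 of the 92, where 14.5% of all tested probe sets reached it. Among 13 other basement membrane genes 7 had lower and 5 higher means and 1 rounded to 0.00, with a median of -0.02. Hspg2, the gene of perlecan, was 6.55, 6.45 and 6.49 in TLR3-/- livers, against 6.66, 6.75 and 6.74 in TLR3wt livers. Col15a1, a basement membrane collagen related to Col18a1, was 5.10, 5.35 and 5.36 in TLR3-/- livers, against 5.60, 5.54 and 5.61 in TLR3wt livers. Both lay lower without overlap, and the laminin chain gene Lama3 lay higher without overlap. The differences of Hspg2, Col15a1 and Lama3 were -0.22, -0.31 and 0.25 (limma adjusted p = 0.187, 0.202 and 0.237).

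Of 16 genes for collagen modification and folding 12 had lower means and 4 higher means, with a median of -0.06. P4ha1, the catalytic subunit of prolyl 4-hydroxylase, which stabilises the collagen triple helix, was 6.22, 6.37 and 6.14 in TLR3-/- livers, against 7.13, 7.82 and 6.84 in TLR3wt livers. The highest mouse here was TLR3wt replicate 2 and not replicate 3 as in the fibrillar collagens. The difference was -1.02 (95% interval -1.62 to -0.42, limma adjusted p = 0.174), a level 2.03-fold lower in TLR3-/- livers. Serpinh1, the collagen chaperone gene, and Pcolce, an enhancer of procollagen processing, had differences of -0.33 and -0.35 without overlap (limma adjusted p = 0.199 and 0.336), and that of Pcolce was -0.19 without TLR3wt replicate 3.

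Within the TGF-beta pathway list, 7 of 19 tested genes had lower and 12 higher means, with a median of 0.08, or 0.01 to 0.14 when 1 mouse was left out. Ccn2, a matricellular gene and a classic target of TGF-beta, was 6.23, 6.21 and 6.13 in TLR3-/- livers, against 6.90, 7.00 and 6.68 in TLR3wt livers. Its groups were far apart for their spread, with a difference of -0.67 (95% interval -0.89 to -0.45, limma adjusted p = 0.0843), a level 1.59-fold lower in TLR3-/- livers. Smad7, the inhibitory SMAD gene, which TGF-beta also induces, was 6.26, 6.34 and 6.65 in TLR3-/- livers, against 5.88, 5.72 and 6.09 in TLR3wt livers. It lay the other way without overlap, with a difference of 0.52 (0.19 to 0.86, limma adjusted p = 0.194). Tgif1, the gene of a SMAD corepressor, had a difference of 0.32 (limma adjusted p = 0.172), also without overlap. The ligand genes Tgfb2 and Tgfb3 were at the floor in all mice.

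**Figure D5:**
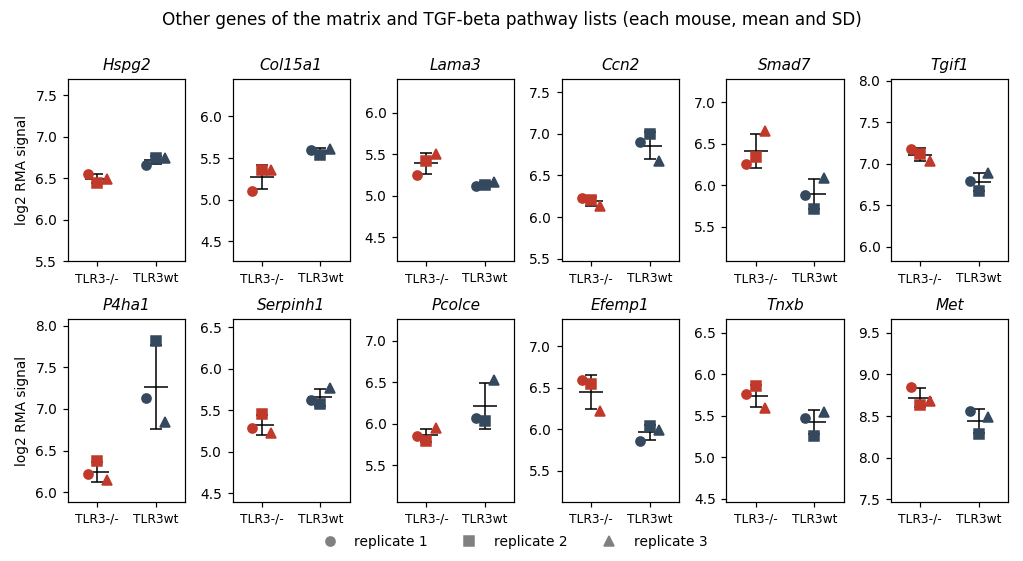
Log2 RMA signal (y axis, the same span in each panel) of 12 genes from the matrix and TGF-beta pathway lists, with TLR3-/- mice in red on the left and TLR3wt mice in dark blue on the right (n = 3 each), the mean as a bar and the SD as whiskers. Ccn2, P4ha1, Hspg2, Col15a1, Serpinh1 and Pcolce are lower in every TLR3-/- liver, and Smad7, Tgif1, Lama3, Efemp1, Tnxb and Met are higher in every TLR3-/- liver.

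Among 14 tested collagens and fibril proteins outside the members, 7 had lower and 7 higher means, with differences of 0.49 for the fibulin gene Efemp1, 0.31 for the tenascin gene Tnxb and -0.20 for Col13a1 (limma adjusted p = 0.169, 0.263 and 0.399). Of 16 matrix receptors 12 had lower means, with a median of -0.10, or -0.05 without TLR3wt replicate 3 and -0.06 without TLR3-/- replicate 3, including the syndecan gene Sdc4 (-0.24) and the integrin genes Itga9 (-0.25) and Itga3 (-0.16), with limma adjusted p of 0.187, 0.247 and 0.294. Of 7 other tested proteases and inhibitors 4 had lower means, and Adam17, a sheddase, Mmp19 and Adamts9 had differences of -0.21, 0.08 and -0.16. Without TLR3wt replicate 3 those of Mmp19 and Adamts9 were 0.02 and -0.01. Among 7 PDGF and HGF genes 3 had lower and 3 higher means and 1 rounded to 0.00. Met, the receptor of HGF, had a difference of 0.28 and Spint2, an inhibitor of HGF activation, of 0.20, both without overlap (limma adjusted p = 0.291 and 0.247). Pdgfb was at the floor in all TLR3-/- livers and in 1 of 3 TLR3wt livers, and its difference on the floored values was -0.18 (limma adjusted p = 0.455), or -0.08 without TLR3wt replicate 2.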

How the data were processed

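Total liver RNA of 3 TLR3-/- and 3 TLR3wt mice was measured on 1 array per mouse, and groups and replicate numbers were taken from the sample titles. The submitters' processing notes name RMA and Affymetrix Expression Console, and the deposited values are read as log2 signals from that method and their range. The table held 35557 probe sets and 0 columns of other samples. Its lowest value is exactly 5, held by 57.2% to 57.6% of the values of an array, and the sources used here do not say what set it. If 5 replaced lower values, a difference is understated where values at the floor lie in the lower group alone. The bias of a difference is unknown where both groups hold such values. Probe sets above the floor numbered 15081 to 15226 per array, and the number of arrays limits the precision.

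Probe sets were named from GEO's platform annotation, with symbols brought up to date by RefSeq gene identifiers (99.6% matched). Probe sets with 1 symbol numbered 21789, with several 1621 and with none 12147. A gene was represented by its 1-symbol probe set with the highest mean. limma 3.58.1 in R 4.3.3 (lmFit, eBayes, two-sided, Benjamini-Hochberg) was fitted over the 16639 probe sets above the floor on at least 1 array, leaving out 18918, and was tested on simulated data. The members and lists were chosen with earlier results of these data known, so lists carry no test. The text names every member and, of each further list, the 3 genes with the smallest unadjusted p, plus genes at the floor. Tgfb2 and Tgfb3 were named after their values were seen. The series gives 3 mice per group, so p-values set a group difference against the spread between animals, as moderated by limma across probe sets. Cage, litter and array batch are not stated, so their part in these values is unknown. Replicate numbers were not treated as pairs of mice. Alternatives covered filters, normalisation, weights, the variance trend, a replicate block and leaving out each mouse.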

Additional observations from a re-analysis of the deposited data

How the results depend on the processing

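No member passed limma's adjusted p of 0.05 under any of the 15 alternatives (members' smallest adjusted p 0.0901 to 0.388), and by sign alone, with Hgf and Lum counted, 28 members had lower means, against 25 to 28 under the alternatives (25 of 34 where all 6 arrays had to exceed the floor, and 25 of 37 without TLR3-/- replicate 3 or TLR3wt replicate 2). The count of all called probe sets, 31, was 0 with limma fitted to every probe set, floor or not (2018 at an unadjusted p under 0.05), 18 with that stricter floor filter, 9 after quantile normalisation again, 14 with arrays centred on their median, and 1 with 1-symbol probe sets only. It was 0 to 13 without 1 mouse (0 without TLR3-/- replicate 3 or TLR3wt replicate 1 or 2, 1 without TLR3-/- replicate 1 or 2, 13 without TLR3wt replicate 3). The cause of these shifts was not tested. With the replicate number as a block it was 4. Deviations of same-numbered mice correlated at 0.0477, -0.0119 and -0.0633, and no TLR3-/- mouse correlated best with its own number. These values showed no sign of pairing, but with 3 mice per group they cannot exclude it. The microfibril, proteoglycan and elastic fibre median was -0.02 with all probe sets, where members at the floor enter as 0, and the stellate marker median 0.09 with array weights. No reversal was counted for 34 of 37 tested members, among them Hgf and Lum, which lay at 0.00 and took either sign. Mmp14 and Acta2 turned to 0.06 and 0.11 with array weights, and without 1 mouse Mmp14 ranged from -0.14 to 0.16, Acta2 from -0.24 to 0.22 and Timp2 from -0.11 to 0.03. Values near the floor limit Eln, Lum, Hand2 and Thy1.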
